A study of Mus musculus with 15 samples.

Results

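RNA sequencing of L-gel@GSNP and non-SP cells of GL261, a mouse glioma cell line, is described here across all genes of the deposited count table. The comparison was chosen by group label and uses 6 of the 15 libraries of the study, 3 of each group, with no measured value used in the choice. The L-gel@GSNP libraries come from cells labelled Hoechst-CD133+ that were mixed on ice for 20 min into a lyophilised hydrogel, which the labels call chiral and mark L, loaded with GSNP, and then kept with a cytokine cocktail. The non-SP libraries come from cells not in the side population, which is the set of cells that export the dye Hoechst, and these had no gel, no ice step and no cytokines. All 6 libraries are wild type, were taken at day 6 after fresh medium on days 2 and 4, and carry the same batch label. The other groups of the study are Hoechst-CD133+ cells with the same cytokine cocktail, in a D-marked gel with GSNP (D-gel@GSNP), in a D-marked gel with NP (D-gel@NP) or with PBS and no gel (PBS). GSNP and NP are code names that the labels do not spell out, and the labels do not list the cytokines. The cell population, the gel, its load, the ice step and the cytokines all differ between L-gel@GSNP and non-SP, and these cannot be told apart within this comparison.

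Side population cells keep dyes and drugs out through membrane pumps of the ABC family, and CD133, the product of Prom1, is a surface protein used to sort stem-like glioma cells. Cells that are short of amino acids or glucose, or whose endoplasmic reticulum is overloaded, slow translation by phosphorylating the initiation factor eIF2, while the transcription factor ATF4 turns on genes for amino acid synthesis and transport, a programme called the integrated stress response. Cells short of oxygen stabilise the factor HIF-1, which turns on genes of glycolysis, of mitophagy and of blood vessel growth. Cells that leave the cycle lower genes of DNA replication and mitosis together, which the E2F factors and the DREAM complex control, and cells that grow less make fewer ribosomes.

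The total count was 34956917, 43662948 and 98102794 in L-gel@GSNP 1, 2 and 3, against 41819038, 39293765 and 41576538 in non-SP 1, 2 and 3. Levels are given as CPM, counts per 1000000 counts of the library, with totals scaled by TMM factors. Nothing in the labels says that the libraries of a group came from separate cultures, so the p-values measure only the spread between libraries of a group. That spread was estimated over all 15 libraries of the study. By Euclidean distance of log2 CPM, the L-gel@GSNP libraries lay 56.6 to 66 from each other and 136 to 141 from the non-SP libraries, which lay 67.5 to 69.4 from each other. The D-gel@GSNP libraries, although labelled Hoechst-CD133+ and treated, lay 67.6 to 73.9 from the non-SP libraries, about as far as libraries of one group lie apart. The astrocyte list summed to 828 to 928 CPM in L-gel@GSNP and 509 to 515 CPM in non-SP, most of it Glul and Clu. Gfap, an astrocyte filament, overlapped between the groups, at 0.113, 0.18 and 0.119 CPM in the L-gel@GSNP libraries and 0.144, 0.0256 and 0.145 CPM in the non-SP libraries. Olig2 had no count in any of the 6 libraries. The simple epithelial keratin Krt8 was at 923, 923 and 885 CPM in L-gel@GSNP cells, against 730, 712 and 710 CPM in non-SP cells. Prom1, the gene of the CD133 label, had 2, 2 and 31 counts in L-gel@GSNP 1, 2 and 3, against 2 counts in all in the non-SP libraries. That is a depth-scaled ratio of 11.8 with an exact 95% counting interval of 3.04 to 102, and it rests on L-gel@GSNP 3, the deepest library. Even numbers made up 62.7% to 65.7% of the counts between 1 and 20 in these 6 libraries, so counts may not be independent and counting intervals may be too narrow.

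The L-gel@GSNP cells differed from the non-SP cells in most of the genes measured. By edgeR's quasi-likelihood test with Benjamini-Hochberg adjustment over 17497 tested genes, 5361 genes (30.6%) were higher and 5107 (29.2%) lower at an adjusted p under 0.05, 59.8% in either direction. Counts of list members given below are to be read beside these shares. The CPM of the groups did not overlap for 66.6% of the tested genes. The rises were larger than the falls: 2310 genes (13.2%) were at least 2-fold higher and 840 (4.8%) at least 2-fold lower, and past 8-fold there were 506 higher and 25 lower genes. Below 2-fold the order turned, with 1086 higher and 1525 lower genes between 1.5-fold and 2-fold and 1965 higher and 2742 lower genes under 1.5-fold. The median log2 difference of all tested genes was 0.041. Upper-quartile factors in place of TMM moved that median to 0.16 and the calls to 6472 higher and 4106 lower genes.

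**Figure D1:**
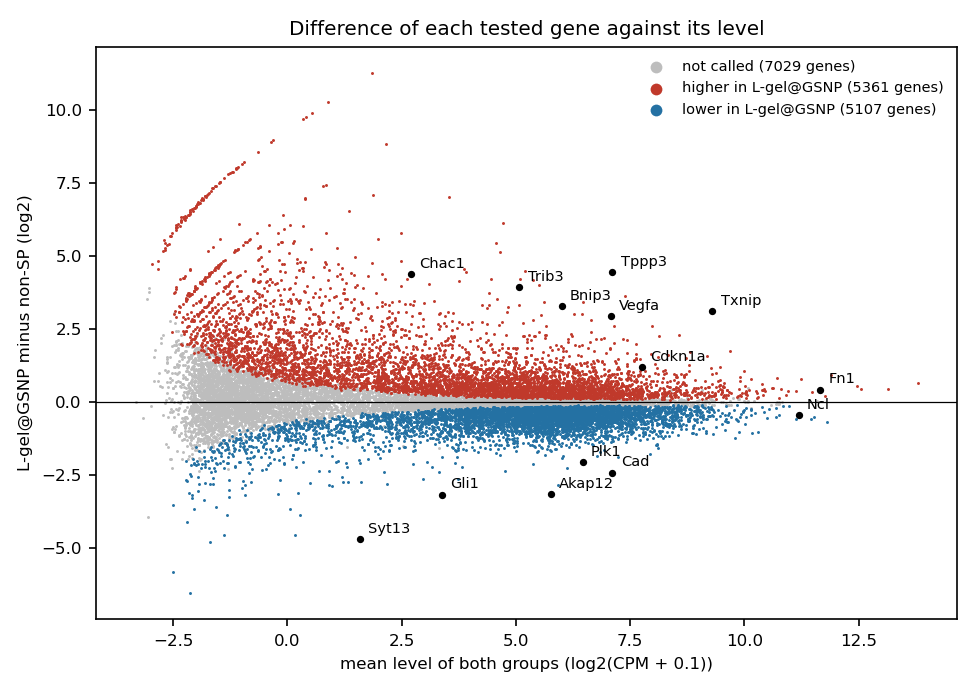
Each point is a tested gene, with the mean level of both groups on the x axis as log2(CPM + 0.1) and the log2 difference, L-gel@GSNP minus non-SP, on the y axis. Red marks the 5361 higher genes, blue the 5107 lower genes and grey the genes that did not pass, and the red cloud reaches farther from 0 than the blue one.

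The largest rises and falls were picked only among called genes without overlap between the groups. Their calls and their lack of overlap follow from that choice. Several of the largest rises were genes with hardly a read in non-SP cells. Ighm, the immunoglobulin mu heavy chain gene, was at 7.25, 7.71 and 5.98 CPM in the L-gel@GSNP libraries and had no count in the non-SP libraries. Against a floor of 3 counts over the 3 non-SP libraries it was at least 271-fold higher. Atp2a3, a calcium pump of the endoplasmic reticulum, had 1525 counts in L-gel@GSNP and 2 in non-SP, a depth-scaled ratio of 515 with an exact 95% counting interval of 142 to 4260 (the fitted log2 difference was 8.82, and 11.59 without non-SP 2, which held both counts, a value that is then no bound). Tmprss6, a membrane protease that in liver holds down hepcidin, was at 23.1, 21.1 and 23.9 CPM in L-gel@GSNP and 0.264, 0.154 and 0.0969 CPM in non-SP. It was 130-fold higher (edgeR adjusted p = 5.21e-15). The metalloreductase Steap4 was at 54.3, 53.1 and 48.4 CPM in L-gel@GSNP, against 0.503, 1.02 and 0.702 CPM in non-SP, 70-fold higher, and the iron-siderophore binding protein Lcn2 was at 12.2, 9.87 and 10.7 CPM in the L-gel@GSNP libraries and 0.12, 0.282 and 0.194 CPM in the non-SP libraries, 54.7-fold higher. Gda, which deaminates guanine, was at 46.1, 47.7 and 51.3 CPM in L-gel@GSNP cells, against 1.27, 1.49 and 1.36 CPM in non-SP cells, 35.3-fold higher. A pair of tubulin polymerisation promoting proteins were also higher, with low levels in non-SP. Tppp was at 45.5, 49 and 43 CPM in L-gel@GSNP and 1.32, 0.871 and 0.92 CPM in non-SP, and Tppp3 was at 275, 276 and 244 CPM in L-gel@GSNP, against 12.1, 11.9 and 12.3 CPM in non-SP. They were 43.9-fold higher and 21.9-fold higher.

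The largest falls left a low level in place of a moderate one. Syt13, an atypical synaptotagmin, was at 0.396, 0.0901 and 0.198 CPM in the L-gel@GSNP libraries and 5.92, 5.17 and 5.67 CPM in the non-SP libraries, a log2 difference of -4.69 (95% interval -5.29 to -4.09). Akap12, a scaffold that binds protein kinase A, was at 10.6, 10.7 and 11.5 CPM in L-gel@GSNP cells, against 101, 94.8 and 97.7 CPM in non-SP cells, and Kctd12, an auxiliary subunit of GABA-B receptors, was at 14.1, 15.1 and 15.3 CPM in L-gel@GSNP and 108, 105 and 110 CPM in non-SP. They were 8.9-fold lower and 7.23-fold lower. Ksr2, a scaffold of the RAF, MEK and ERK kinases, was at 3.4, 3.58 and 3.94 CPM in L-gel@GSNP, against 21.3, 23.6 and 22.9 CPM in non-SP, 6.14-fold lower. Cad encodes the enzyme that carries out the first steps of pyrimidine synthesis. It was at 39.6, 44 and 47.2 CPM in the L-gel@GSNP libraries and 231, 226 and 240 CPM in the non-SP libraries, 5.32-fold lower (edgeR adjusted p = 1.12e-16). Among abundant messages, the RNA-binding protein genes Pabpc1 and Ybx1 fell by 0.68 and 1.21 on the log2 scale, with Ybx1 at 505, 536 and 556 CPM in L-gel@GSNP cells, against 1250, 1240 and 1220 CPM in non-SP cells. Igfbp4, a binding protein of insulin-like growth factors, was at 738, 767 and 735 CPM in L-gel@GSNP and 1540, 1520 and 1570 CPM in non-SP, 2.07-fold lower.

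**Figure D2:**
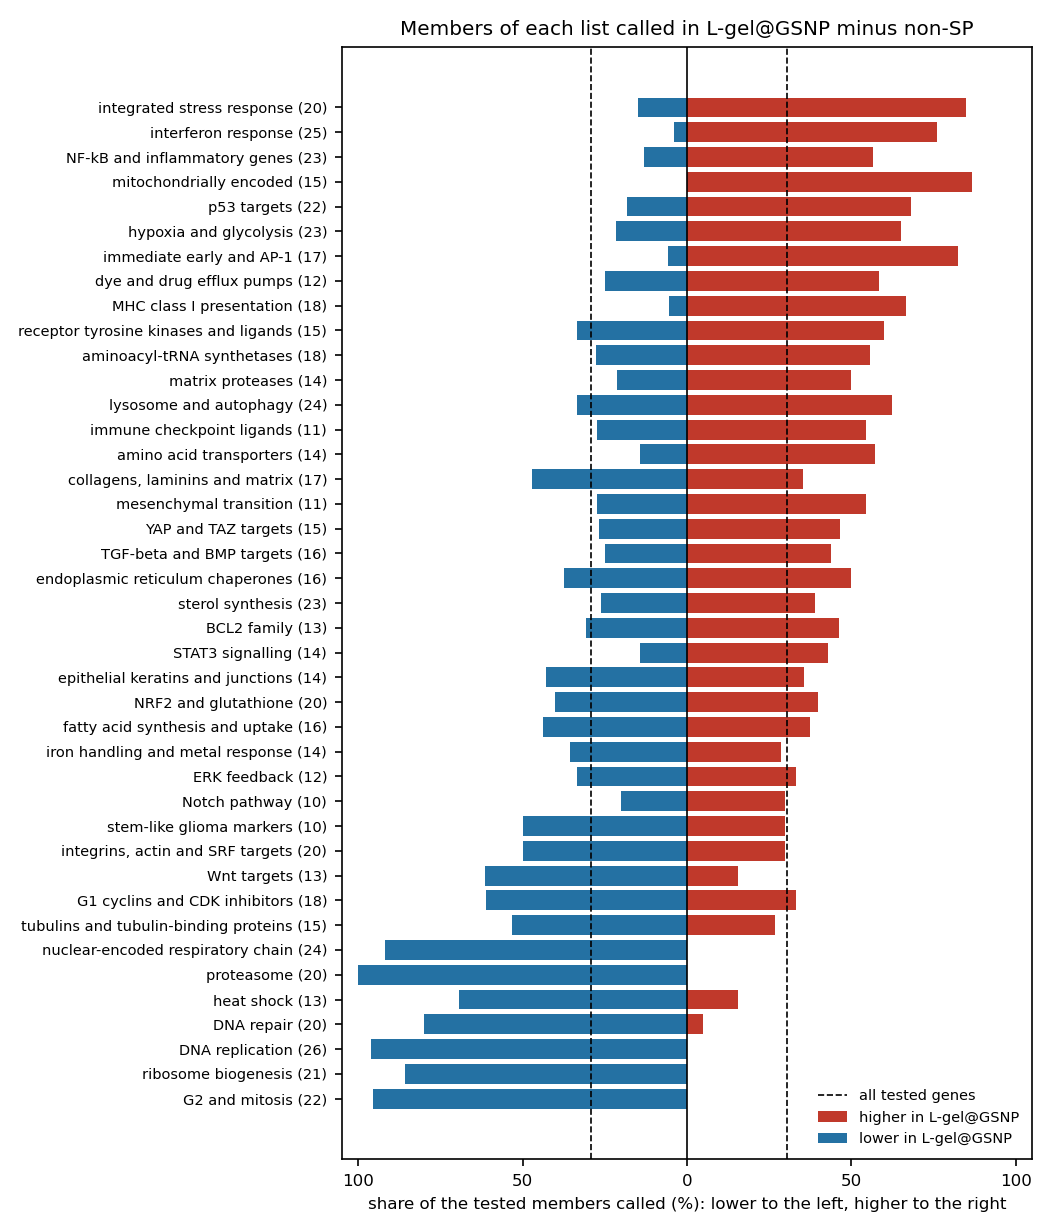
Bars give the share of the tested members (number in brackets) of the gene lists with at least 10 tested members called higher (red, to the right) or lower (blue, to the left) in L-gel@GSNP minus non-SP, ordered by median log2 difference, and dashed lines give the shares of all tested genes, 30.6% and 29.2%. Lists of mitosis, replication, ribosome biogenesis and the proteasome lie on the lower side, and those of the integrated stress response, interferon response and mitochondrially encoded genes on the higher side.

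Genes of DNA replication and mitosis were lower almost without exception. Of 26 tested genes of DNA replication, 25 were lower and none higher, with a median log2 difference of -0.75, and of 22 genes of G2 and mitosis 21 were lower and none higher, with a median of -0.99. Plk1, the kinase that drives entry into mitosis and the separation of chromosomes, was at 31.3, 38.3 and 33.2 CPM in L-gel@GSNP, against 142, 140 and 143 CPM in non-SP. Every L-gel@GSNP library lay below every non-SP library, and Plk1 was 4.13-fold lower (log2 difference -2.05, 95% interval -2.20 to -1.90, edgeR adjusted p = 5.04e-16). The spindle kinase genes Aurka and Aurkb were 2.56-fold lower and 2.71-fold lower, Cdc20, an activator of the anaphase-promoting complex, 2.59-fold lower, and Foxm1, a transcription factor of the G2 programme, 2.49-fold lower. The proliferation marker Mki67 was at 320, 331 and 274 CPM in the L-gel@GSNP libraries and 615, 649 and 652 CPM in the non-SP libraries, 2.07-fold lower. Nusap1, a spindle protein, was the member not called, at 91.8, 89 and 76.4 CPM in L-gel@GSNP cells, against 85.1, 85.9 and 84.4 CPM in non-SP cells.

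Among the replication genes Rrm2, the regulatory subunit of ribonucleotide reductase, was at 188, 196 and 151 CPM in L-gel@GSNP and 417, 411 and 417 CPM in non-SP, 2.33-fold lower. Mcm5, a subunit of the replicative helicase, was at 156, 155 and 127 CPM in L-gel@GSNP, against 292, 290 and 300 CPM in non-SP, 2.02-fold lower. The other helicase genes Mcm2, Mcm3, Mcm4 and Mcm6 had log2 differences of -0.85, -0.92, -0.75 and -0.76 and were called too, while Mcm7 was at 396, 417 and 349 CPM in the L-gel@GSNP libraries and 408, 402 and 409 CPM in the non-SP libraries and did not pass (log2 difference -0.07, 95% interval -0.19 to 0.05). Of 20 DNA repair genes 16 were lower and 1 higher, with a median log2 difference of -0.54. Parp1, which marks DNA breaks with poly(ADP-ribose), was at 188, 195 and 194 CPM in L-gel@GSNP cells, against 381, 382 and 380 CPM in non-SP cells, and the checkpoint kinase gene Chek1 was at 43.6, 45.7 and 39.4 CPM in L-gel@GSNP and 74.4, 81 and 72.1 CPM in non-SP. They were 1.98-fold lower and 1.77-fold lower, whereas Atr, the kinase that senses stalled forks, was 1.2-fold higher.

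The promoters of Plk1 and Mcm5 are shown because each holds a short motif that many genes of its list share. Sequences are from RefSeq on GRCm38.p6, from 250 bases before to 50 bases after the gene's start, 5′ to 3′ on the gene's strand, with motif matches on either strand in capitals. Plk1 lies at chr7:122159185-122159484 on the plus strand, with the cell cycle genes homology region, TTTGAA, in capitals. Mcm5 lies at chr8:75109259-75109558 on the plus strand, with an E2F site, searched as TTTCCCGC or TTTGGCGC, in capitals.
Plk1: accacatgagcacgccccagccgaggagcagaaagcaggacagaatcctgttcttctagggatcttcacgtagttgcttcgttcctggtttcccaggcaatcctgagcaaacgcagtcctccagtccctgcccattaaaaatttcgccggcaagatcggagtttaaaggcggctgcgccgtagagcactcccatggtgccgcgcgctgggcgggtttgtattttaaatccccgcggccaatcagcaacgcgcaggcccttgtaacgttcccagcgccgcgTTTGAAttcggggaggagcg
Mcm5: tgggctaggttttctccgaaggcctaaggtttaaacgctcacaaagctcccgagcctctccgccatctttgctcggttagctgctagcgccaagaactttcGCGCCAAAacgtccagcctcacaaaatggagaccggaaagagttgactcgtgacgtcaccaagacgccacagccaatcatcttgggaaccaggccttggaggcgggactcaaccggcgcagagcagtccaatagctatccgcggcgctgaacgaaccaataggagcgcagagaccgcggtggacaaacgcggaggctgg
Some list genes had several promoters in the set searched and others had none. TTTGAA was in 14 of 19 promoters of the G2 and mitosis list and in 17.9% of all 32851 promoters. Those 19 promoters belong to 18 of the 22 tested genes. The E2F letters were in 10 of 25 promoters of the replication list and in 1.56% of all promoters. Those 25 promoters belong to 21 of the 26 tested genes. A match describes the letters in this window and is not shown to be a bound site.

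In G1, some genes that hold the cycle back were higher and several that drive it were lower. Of 18 tested G1 cyclins, kinases, inhibitors and pocket protein genes, 6 (33.3%) were higher and 11 (61.1%) lower. The shares of all tested genes were 30.6% and 29.2%. Cdkn1a, which encodes the inhibitor p21, was at 292, 285 and 329 CPM in L-gel@GSNP, against 133, 132 and 131 CPM in non-SP, 2.29-fold higher, and Cdkn2b, which encodes p15, was at 33.3, 38.1 and 40.7 CPM in the L-gel@GSNP libraries and 13.3, 14 and 14.9 CPM in the non-SP libraries, 2.66-fold higher. Cdkn1b, for p27, and the pocket proteins Rb1 and Rbl2 were 1.57-fold higher, 1.4-fold higher and 1.45-fold higher. Ccne1, the cyclin that starts S phase, was at 16.2, 18 and 13.8 CPM in L-gel@GSNP cells, against 46.1, 45.3 and 46.1 CPM in non-SP cells. It was 2.88-fold lower, with no overlap, and the transcription factor gene E2f1 was 1.7-fold lower. Ccnd1, the growth-factor-driven cyclin D1, was 1.24-fold higher.

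Targets of the tumour suppressor p53 rose in part. Of 22 tested targets 15 were higher and 4 lower (2 when thinned to the shallowest library), with a median log2 difference of 0.66. Trp53inp1, which promotes autophagy and cell death, was at 441, 434 and 423 CPM in L-gel@GSNP and 66.3, 72.4 and 73.8 CPM in non-SP, 6.11-fold higher. Btg2, an antiproliferative gene, was 3.82-fold higher, the death receptor gene Fas 3.66-fold higher and Sesn1, a stress-induced inhibitor of mTORC1, 3.15-fold higher. The lower targets were Tigar, Gtse1, Plk3 and Tnfrsf10b, with log2 differences of -0.92, -0.61, -0.42 and -0.17 (Gtse1 is also a G2 gene, and the call for Tnfrsf10b was lost under upper-quartile factors and several other settings, that for Plk3 when libraries were thinned to one depth). In the BCL2 family, which sets the threshold for apoptosis, 6 of 13 tested genes were higher and 4 lower. Bmf, a BH3-only killer, was at 9.96, 9.53 and 12.6 CPM in L-gel@GSNP, against 0.383, 0.461 and 0.291 CPM in non-SP, 28.3-fold higher, and the BH3-only gene Bcl2l11, which encodes BIM, was at 124, 131 and 144 CPM in the L-gel@GSNP libraries and 51.9, 52.5 and 53.6 CPM in the non-SP libraries, 2.53-fold higher. The effector genes went apart, Bak1 at 35, 34.7 and 34.4 CPM in L-gel@GSNP cells, against 76.1, 75.6 and 72.1 CPM in non-SP cells, 2.15-fold lower, and Bax 1.12-fold higher, a call that some other settings lost, while the survival gene Bcl2 was 1.62-fold lower.

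Genes of ribosome biogenesis, of the proteasome and of the heat shock list were mostly lower. Of 21 tested genes of ribosome biogenesis 18 were lower and none higher, with a median log2 difference of -0.80. Polr1b, a subunit of RNA polymerase I, was at 23.8, 24 and 24.4 CPM in L-gel@GSNP and 70.2, 66.3 and 71.5 CPM in non-SP, 2.88-fold lower, and Rrp9, a factor of ribosomal RNA processing, was at 22.3, 21.6 and 20.5 CPM in L-gel@GSNP, against 57.5, 55.7 and 54.1 CPM in non-SP, 2.6-fold lower. Ncl, the abundant nucleolar protein nucleolin, was at 2090, 2070 and 1810 CPM in the L-gel@GSNP libraries and 2590, 2720 and 2730 CPM in the non-SP libraries, a log2 difference of -0.43. Myc, a driver of ribosome synthesis placed in the same list, was at 187, 194 and 213 CPM in L-gel@GSNP cells, against 193, 195 and 197 CPM in non-SP cells. Its groups overlapped and it did not pass (log2 difference 0.02, 95% interval -0.11 to 0.15). All 20 tested proteasome genes were lower, with a median log2 difference of -0.42 and the largest fall in Psmb7, at 67.2, 62.8 and 57.9 CPM in L-gel@GSNP and 101, 112 and 104 CPM in non-SP, 1.69-fold lower, and under upper-quartile factors 17 of the 20 passed, with Psma6 at 0. The call for Psma6 was lost under most other settings too. Of 13 heat shock genes 9 were lower and 2 higher. Hspd1, the mitochondrial chaperonin, was at 881, 846 and 767 CPM in L-gel@GSNP, against 1660, 1710 and 1680 CPM in non-SP, 2.02-fold lower, and Hsph1, a cytosolic co-chaperone, was at 128, 123 and 141 CPM in the L-gel@GSNP libraries and 283, 295 and 277 CPM in the non-SP libraries, 2.17-fold lower. The small heat shock gene Cryab and the mitochondrial Hspa9 were the higher members, 1.48-fold higher and 1.19-fold higher.

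Genes of the integrated stress response were higher. Of 20 tested genes 17 were higher and 3 lower, with a median log2 difference of 1.29. Trib3, a pseudokinase that feeds back on ATF4, was at 68.1, 62 and 59.5 CPM in L-gel@GSNP cells, against 4.19, 3.58 and 4.63 CPM in non-SP cells. Chac1, which breaks down glutathione, was at 11.9, 11.5 and 13.3 CPM in L-gel@GSNP and 0.216, 1.23 and 0.339 CPM in non-SP, and Nupr1, a small chromatin-bound stress protein, was at 80.3, 89.3 and 84.7 CPM in L-gel@GSNP, against 4.77, 5.33 and 5.84 CPM in non-SP. No library of either group overlapped with the other for these genes, and they were 15.2-fold higher, 20.8-fold higher and 16-fold higher, with edgeR adjusted p of 1.84e-14, 2.33e-11 and 1.09e-18. The log2 difference of Chac1, 4.38, became 5.45 without non-SP 2. Aldh1l2, a mitochondrial folate enzyme, was at 63.9, 66.5 and 62.3 CPM in the L-gel@GSNP libraries and 3.81, 3.43 and 3.2 CPM in the non-SP libraries, 18.4-fold higher. Asns, asparagine synthetase, was at 222, 213 and 197 CPM in L-gel@GSNP cells, against 89.4, 92.3 and 90.4 CPM in non-SP cells, 2.32-fold higher.

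Regulators of the response were higher too, with 1 exception. Atf4 itself was at 288, 287 and 269 CPM in L-gel@GSNP and 137, 135 and 137 CPM in non-SP, 2.06-fold higher, Atf5 was 2.7-fold higher, Ddit3, which encodes CHOP, 2.21-fold higher, and Ppp1r15a, which brings a phosphatase to eIF2, 3.08-fold higher. Eif2ak3, the eIF2 kinase of the endoplasmic reticulum, was 1.24-fold higher, and Eif2ak4, the kinase that senses uncharged tRNA, was 1.25-fold lower. In serine and one-carbon synthesis the members went apart: Psph was 2.45-fold higher, Mthfd2 2.28-fold higher and Psat1 1.5-fold higher, whereas Shmt2 was 1.34-fold lower and Phgdh, the first enzyme of the serine pathway, was at 409, 417 and 345 CPM in L-gel@GSNP, against 433, 435 and 432 CPM in non-SP, 1.11-fold lower (edgeR adjusted p = 0.0331). The call for Phgdh was lost under several other settings.

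The aminoacyl-tRNA synthetases, which load tRNAs and of which many are ATF4 targets, did not move as a block. Of 18 tested, 10 were higher and 5 lower, with a median log2 difference of 0.32, and under most other settings 3 were lower. Cars and Nars were 1.8-fold higher and 1.6-fold higher, with Nars at 405, 391 and 381 CPM in the L-gel@GSNP libraries and 246, 254 and 235 CPM in the non-SP libraries. Vars was at 111, 122 and 135 CPM in L-gel@GSNP cells, against 298, 288 and 309 CPM in non-SP cells, 2.43-fold lower, and Hars and Kars were 1.78-fold lower and 1.49-fold lower. Qars and Mars had log2 differences of -0.12 and -0.11, and both calls were lost under most other settings, with Mars at 0.01 under upper-quartile factors. Of 14 amino acid transporters 8 were higher and 2 lower. Slc6a9, a glycine transporter, was at 15.9, 17.4 and 17.6 CPM in L-gel@GSNP and 2.71, 2.64 and 2.59 CPM in non-SP, 6.41-fold higher, and Slc38a2, a transporter of small neutral amino acids, was at 1610, 1690 and 1590 CPM in L-gel@GSNP, against 1060, 1030 and 1080 CPM in non-SP, 1.54-fold higher. Slc7a5, the leucine transporter LAT1, was 1.55-fold lower.

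**Figure D3:**
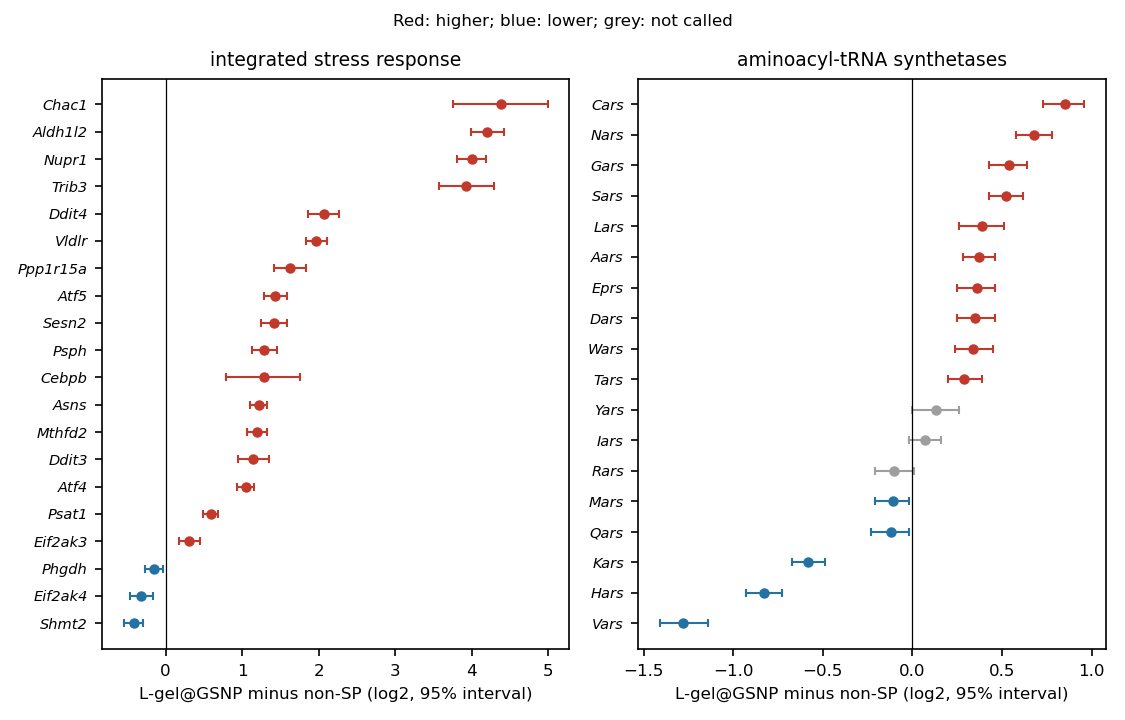
Points give the log2 difference, L-gel@GSNP minus non-SP, of each tested gene of the integrated stress response (left) and of the aminoacyl-tRNA synthetases (right), with 95% intervals from the edgeR fit; red genes were called higher, blue lower and grey not called. Chac1, Aldh1l2, Nupr1 and Trib3 stand near 4 on the log2 scale, and the synthetases spread from -1.28 for Vars to 0.85 for Cars.

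The promoters of Trib3, Chac1 and Asns are shown because each holds the element to which ATF4 and C/EBP factors bind as a pair, searched as TGATGNAA on both strands (RefSeq, GRCm38.p6, same window, match in capitals). Trib3 lies at chr2:152344011-152344310 on the minus strand, Chac1 at chr2:119350992-119351291 on the plus strand and Asns at chr6:7693160-7693459 on the minus strand.
Trib3: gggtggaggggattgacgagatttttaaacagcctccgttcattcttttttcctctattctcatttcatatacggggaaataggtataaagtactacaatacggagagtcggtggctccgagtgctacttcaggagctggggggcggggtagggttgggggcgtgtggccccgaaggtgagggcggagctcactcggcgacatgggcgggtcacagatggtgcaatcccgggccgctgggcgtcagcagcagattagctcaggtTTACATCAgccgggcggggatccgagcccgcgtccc
Chac1: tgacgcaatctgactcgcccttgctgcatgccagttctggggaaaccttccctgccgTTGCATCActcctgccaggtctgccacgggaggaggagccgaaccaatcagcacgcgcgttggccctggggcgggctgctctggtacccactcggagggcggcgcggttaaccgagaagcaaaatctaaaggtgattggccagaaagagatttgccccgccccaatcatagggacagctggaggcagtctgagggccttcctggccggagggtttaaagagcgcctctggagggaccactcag
Asns: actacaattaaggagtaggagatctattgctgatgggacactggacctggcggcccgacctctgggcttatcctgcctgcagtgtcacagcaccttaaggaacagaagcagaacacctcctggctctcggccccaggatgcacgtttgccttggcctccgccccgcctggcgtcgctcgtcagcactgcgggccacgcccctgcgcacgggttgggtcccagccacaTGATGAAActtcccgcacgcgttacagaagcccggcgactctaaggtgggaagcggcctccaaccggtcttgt
The element was in 5 of 23 promoters of the stress response list (Asns, Chac1, Nupr1, Trib3 and Vldlr). It was in 5 of 11 promoters of the synthetase list (Aars, Gars, Iars, Tars and Yars) and in 3.97% of all promoters. Those promoters belong to 19 of the 20 tested stress response genes and to 11 of the 18 tested synthetases. Cars, Nars, Vars and Hars were among the synthetases with no promoter in the set. Of the synthetase genes with the element Aars, Gars and Tars were called higher. Iars and Yars were not called, although both passed under upper-quartile factors.

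Genes that respond to low oxygen were higher, and several varied among the L-gel@GSNP libraries. Of 23 tested genes of hypoxia and glycolysis 15 were higher and 5 lower (2 under upper-quartile factors), with a median log2 difference of 0.53. Bnip3, a receptor for mitophagy, was at 120, 74.6 and 154 CPM in the L-gel@GSNP libraries and 9.27, 12.8 and 14 CPM in the non-SP libraries. Vegfa, the vessel growth factor, was at 226, 178 and 313 CPM in L-gel@GSNP cells, against 26.5, 33 and 34.4 CPM in non-SP cells, and Ankrd37, a HIF-1 target of unclear role, was at 7.16, 3.97 and 12 CPM in L-gel@GSNP and 0.982, 1.95 and 0.726 CPM in non-SP. In each of these genes L-gel@GSNP 2 was lowest and L-gel@GSNP 3 highest, and even the lowest lay above every non-SP library. They were 9.7-fold higher, 7.65-fold higher and 6.43-fold higher. Ndrg1, a stress-induced differentiation gene, was at 82.2, 62.1 and 102 CPM in L-gel@GSNP, against 16.1, 19.3 and 17.9 CPM in non-SP, 4.63-fold higher.

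Within glycolysis the steps went apart. Aldoa and Pgk1 were 1.75-fold higher and 1.66-fold higher, with Pgk1 at 1290, 973 and 1320 CPM in the L-gel@GSNP libraries and 715, 747 and 697 CPM in the non-SP libraries. Hk1, Hk2, Pgam1 and Eno1 were lower, with log2 differences of -0.31, -0.33, -0.29 and -0.16, and so was Hif1a, which encodes the oxygen-regulated subunit itself, at 323, 316 and 347 CPM in L-gel@GSNP cells, against 362, 389 and 383 CPM in non-SP cells (-0.20). Under upper-quartile factors Pgam1, Eno1 and Hif1a no longer passed. Pdk1, which encodes a kinase that inhibits pyruvate dehydrogenase, was 2.03-fold higher, and the glucose transporter gene Slc2a1 was 1.44-fold higher. Txnip, which binds thioredoxin and holds down glucose uptake, was one of the largest rises in absolute level. It was at 1160, 1040 and 1190 CPM in L-gel@GSNP and 128, 129 and 135 CPM in non-SP, 8.66-fold higher (edgeR adjusted p = 2.18e-18).

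Bnip3 is shown for its promoter, which holds 4 matches to the hypoxia response element, searched as ACGTGC or GCGTGC on both strands (RefSeq, GRCm38.p6, chr7:138909457-138909756, minus strand, matches in capitals, of which a pair overlap).
Bnip3: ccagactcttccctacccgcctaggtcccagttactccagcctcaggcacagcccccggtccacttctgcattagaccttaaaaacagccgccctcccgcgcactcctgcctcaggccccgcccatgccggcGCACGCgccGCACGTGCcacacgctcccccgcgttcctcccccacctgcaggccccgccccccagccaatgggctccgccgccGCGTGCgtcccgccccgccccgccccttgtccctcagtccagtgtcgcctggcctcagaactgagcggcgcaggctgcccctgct
These letters were in 17 of 31 promoters of the hypoxia and glycolysis list, which belong to 21 of its 23 tested genes, and in 16.3% of all promoters. They were also in 10 of 19 promoters of the G2 and mitosis list, whose genes were lower.

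The respiratory chain split by genome. Of 24 tested nuclear genes of the chain 22 were lower and none higher, with a median log2 difference of -0.39. Under upper-quartile factors 16 of the 24 were lower and none higher, with a median of -0.27. Of 15 mitochondrially encoded genes, a list not limited to genes of the chain, 13 were higher and none lower, with a median of 0.67. Uqcrc1 and Cyc1, subunits of complex III, were 2.24-fold lower and 2-fold lower, with Uqcrc1 at 68.7, 76.1 and 80.5 CPM in L-gel@GSNP, against 171, 167 and 168 CPM in non-SP. The ATP synthase gene Atp5b was at 1430, 1410 and 1290 CPM in the L-gel@GSNP libraries and 1950, 1930 and 1940 CPM in the non-SP libraries, 1.41-fold lower. Among the mitochondrial genes mt-Co1, a core subunit of complex IV, was at 18100, 17800 and 16700 CPM in L-gel@GSNP cells, against 10700, 11300 and 11000 CPM in non-SP cells, 1.59-fold higher, and mt-Nd2, of complex I, was at 5140, 5110 and 4840 CPM in L-gel@GSNP and 2570, 2700 and 2610 CPM in non-SP, 1.91-fold higher. Mitochondrially encoded genes together took 4.5% ± 0.192 of the counts in L-gel@GSNP and 2.86% ± 0.0552 in non-SP (SD, n = 3 each). The libraries did not overlap, and the exact two-sided permutation test gave p = 0.1, the smallest that 3 against 3 can give. How reads from nuclear copies of mitochondrial genes were assigned is not given in the sources used here.

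Interferon and antigen presentation genes were higher, many from a low base. Of 25 tested interferon response genes 19 were higher and 1 lower, with a median log2 difference of 1.12 (0.42 on log2(FPKM + 1)). Fitted on the 6 compared libraries alone, 17 of 23 were higher and 1 lower. Gbp2, an interferon-induced GTPase, was at 8.77, 8.4 and 6.59 CPM in L-gel@GSNP, against 1.34, 1.43 and 1.36 CPM in non-SP, 5.71-fold higher, and Oasl2, an antiviral synthetase-like gene, was at 8.66, 9.42 and 8.42 CPM in the L-gel@GSNP libraries and 1.1, 1.2 and 1.31 CPM in the non-SP libraries, 7.32-fold higher. Gbp3, from the same GTPase family, was much more abundant, at 987, 1010 and 939 CPM in L-gel@GSNP cells, against 424, 425 and 431 CPM in non-SP cells, 2.29-fold higher. Irf1, a transcription factor of the response, was at 110, 101 and 99.4 CPM in L-gel@GSNP and 47.5, 49.4 and 46.1 CPM in non-SP, 2.17-fold higher. Ifih1, a sensor of double-stranded RNA, was the lower member, at 8.15, 7.05 and 7.77 CPM in L-gel@GSNP, against 11.6, 11.9 and 10.6 CPM in non-SP. Of 18 genes of MHC class I presentation 12 were higher and 1 lower. The immunoproteasome gene Psmb8 was at 6.45, 5.61 and 5.95 CPM in the L-gel@GSNP libraries and 0.431, 0.691 and 1.33 CPM in the non-SP libraries, 7.3-fold higher, and the peptide transporter gene Tap1 was at 12.9, 15 and 12.3 CPM in L-gel@GSNP cells, against 5.85, 6.07 and 5.88 CPM in non-SP cells, 2.25-fold higher, while B2m, the invariant light chain, was 1.49-fold higher. Psmb10, another immunoproteasome subunit, was 1.37-fold lower. Gbp and H2 genes have close relatives, and reads shared between them make their single values uncertain.

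Gbp2 is shown for the interferon-stimulated response element in its promoter, searched on both strands as GAAA, any 2 bases and GAAA again (RefSeq, GRCm38.p6, chr3:142620413-142620712, plus strand, match in capitals).
Gbp2: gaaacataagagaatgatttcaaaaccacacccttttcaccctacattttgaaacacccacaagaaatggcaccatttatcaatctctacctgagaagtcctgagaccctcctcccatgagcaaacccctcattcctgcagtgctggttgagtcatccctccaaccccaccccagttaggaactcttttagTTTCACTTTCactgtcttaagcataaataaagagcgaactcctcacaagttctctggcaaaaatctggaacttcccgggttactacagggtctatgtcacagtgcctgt
The element was in 14 of 24 promoters of the interferon list, which belong to 20 of its 25 tested genes, and in 3.44% of all promoters.

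Inflammatory genes followed in part. Of 23 tested NF-kB and inflammatory genes 13 were higher and 3 lower, with a median log2 difference of 0.99. The median was 0.55 without L-gel@GSNP 1, 0.33 over the 19 genes with at least 1 CPM in 3 libraries, and 0.32 and 0.48 on log2 FPKM with pseudocounts of 1 and 0.1. The neutrophil chemokine genes Cxcl1 and Cxcl5 were 3.27-fold higher and 4.48-fold higher, with Cxcl5 at 207, 202 and 161 CPM in L-gel@GSNP and 39.7, 44.2 and 43.3 CPM in non-SP. Complement gene C3 was at 212, 230 and 243 CPM in L-gel@GSNP, against 53.8, 58.9 and 55.4 CPM in non-SP, 4.08-fold higher, and the inhibitor genes Nfkbia and Tnfaip3 were 2.46-fold higher and 2.07-fold higher. Saa3, an acute-phase gene, had 183 counts in L-gel@GSNP and none in non-SP, at least 41.2-fold higher against a floor of 3 counts over the group. The genes of the NF-kB subunits themselves, Nfkb1, Nfkb2 and Rela, were the lower members, with log2 differences of -0.59, -0.60 and -0.38. In STAT3 signalling 6 of 14 tested genes were higher and 2 lower. The oncostatin M receptor gene Osmr was at 20, 17.4 and 18.4 CPM in the L-gel@GSNP libraries and 4.12, 4.94 and 5.04 CPM in the non-SP libraries, 3.96-fold higher, and Il6st, the shared receptor chain gp130, was at 181, 185 and 178 CPM in L-gel@GSNP cells, against 90.5, 93.7 and 92.1 CPM in non-SP cells, 1.97-fold higher. Socs3, the feedback inhibitor, was at 17.6, 16.6 and 20.2 CPM in L-gel@GSNP and 17.5, 17.8 and 17.5 CPM in non-SP and did not pass (log2 difference 0.05, 95% interval -0.15 to 0.25).

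Lipid synthesis was mixed. Of 23 sterol synthesis genes 9 were higher and 6 lower, with a median log2 difference of 0.11. Hmgcs1, an early enzyme of the mevalonate pathway, was at 120, 127 and 115 CPM in L-gel@GSNP, against 62.9, 61.2 and 63.6 CPM in non-SP, 1.93-fold higher. Of 16 fatty acid genes 6 were higher and 7 lower. The enzymes that build the chain fell, with Acaca 2.1-fold lower and Fasn at 191, 238 and 245 CPM in the L-gel@GSNP libraries and 463, 449 and 464 CPM in the non-SP libraries, 2.04-fold lower, and Fabp5, a fatty acid carrier, was at 10, 9.87 and 7.17 CPM in L-gel@GSNP cells, against 44.8, 43 and 47.7 CPM in non-SP cells, 5.08-fold lower. Plin2, the coat of lipid droplets, was at 448, 417 and 401 CPM in L-gel@GSNP and 197, 196 and 199 CPM in non-SP, 2.14-fold higher.

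In lysosomes and autophagy 15 of 24 tested genes were higher and 8 lower. Gabarapl1, an autophagosome protein, was at 192, 191 and 194 CPM in L-gel@GSNP, against 59.2, 58.4 and 61 CPM in non-SP, 3.23-fold higher, and the protease gene Ctsd was at 288, 275 and 281 CPM in the L-gel@GSNP libraries and 103, 101 and 106 CPM in the non-SP libraries, 2.72-fold higher. Sqstm1, the cargo adaptor p62, was 2.09-fold higher. Tfeb, a transcription factor of lysosome genes, was at 9.68, 10.2 and 9.1 CPM in L-gel@GSNP cells, against 21.3, 20 and 22.3 CPM in non-SP cells, 2.2-fold lower, and the lysosomal glycoprotein gene Gpnmb was 1.78-fold lower. Of 16 endoplasmic reticulum chaperone genes 8 were higher and 6 lower, led by Xbp1 and Herpud1, at 3.04-fold higher and 2.53-fold higher, with Hspa5, the chaperone BiP, at 816, 737 and 800 CPM in L-gel@GSNP and 530, 569 and 552 CPM in non-SP, 1.43-fold higher. Among 20 NRF2 and glutathione genes 8 were higher and 8 lower, and the median log2 difference of this list changed sign between settings. Gstm1 was 2.03-fold higher, Nfe2l2, which encodes NRF2, 1.85-fold higher, and Gclm, a subunit of the enzyme that starts glutathione synthesis, 1.53-fold lower. In iron handling 4 of 14 (28.6%) were higher and 5 (35.7%) lower (2 under upper-quartile factors). These shares were near the 30.6% and 29.2% of all tested genes. Beside Tmprss6 and Lcn2, the iron exporter gene Slc40a1 was 2.04-fold higher, while the ferritin gene Fth1 was at 767, 758 and 789 CPM in L-gel@GSNP, against 1270, 1270 and 1310 CPM in non-SP, 1.67-fold lower. Tfrc, the transferrin receptor, was at 395, 385 and 339 CPM in the L-gel@GSNP libraries and 356, 387 and 374 CPM in the non-SP libraries and did not pass.

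Immediate early genes were higher. Of 17 tested, 14 were higher and 1 lower, with a median log2 difference of 0.49. Fos was at 39.1, 31.3 and 47.6 CPM in L-gel@GSNP cells, against 3.5, 2.46 and 2.83 CPM in non-SP cells, 13.4-fold higher, and Atf3 was at 54.8, 54.7 and 68.1 CPM in L-gel@GSNP and 10.1, 13.6 and 13.6 CPM in non-SP, 4.77-fold higher. Fosl1, another FOS family gene, was the lower one, at 3.51, 3.24 and 3.41 CPM in L-gel@GSNP, against 6.61, 5.33 and 4.77 CPM in non-SP. Of 12 ERK feedback genes 4 were higher and 4 lower, 33.3% each, near the 30.6% and 29.2% of all tested genes. Dusp1, a phosphatase of the stress kinases, was at 60, 55 and 95.8 CPM in the L-gel@GSNP libraries and 14.8, 14.5 and 15 CPM in the non-SP libraries, 4.79-fold higher, Spry4 and Etv4 were 1.72-fold lower and 1.72-fold lower, and Dusp6, the ERK phosphatase, was at 163, 150 and 137 CPM in L-gel@GSNP cells, against 147, 160 and 149 CPM in non-SP cells and did not pass.

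Genes of developmental pathways went both ways. Of 5 tested Hedgehog genes 4 were lower and 1 higher. Gli1, an effector and target of the pathway, was at 1.67, 2.48 and 2.07 CPM in L-gel@GSNP and 18.2, 21.2 and 16.8 CPM in non-SP, 8.95-fold lower, and the receptor Ptch1, also a target, was at 49.6, 57 and 56.2 CPM in L-gel@GSNP, against 67.2, 65.2 and 67.1 CPM in non-SP, 1.22-fold lower. Cdon, a co-receptor, was 1.89-fold higher. Of 13 Wnt genes 8 were lower and 2 higher (4 under upper-quartile factors), among them the feedback inhibitor Nkd1 at 156, 168 and 170 CPM in the L-gel@GSNP libraries and 332, 314 and 332 CPM in the non-SP libraries, 1.98-fold lower, whereas Axin2, a widely used Wnt target, was at 355, 386 and 415 CPM in L-gel@GSNP cells, against 408, 387 and 397 CPM in non-SP cells and did not pass (log2 difference -0.04, 95% interval -0.16 to 0.07). Among 15 YAP and TAZ genes 7 were higher and 4 lower, with a median log2 difference of 0.16, and without L-gel@GSNP 3 the counts were 4 and 4 and the median was -0.05. Tead4, a DNA-binding partner of YAP, was at 16.6, 16.4 and 18 CPM in L-gel@GSNP and 44.1, 44.6 and 45.3 CPM in non-SP, 2.61-fold lower, and the targets Ccn1 and Ccn2 were at log2 differences of 0.41, called, and 0.21, not called. Without L-gel@GSNP 3 the log2 difference of Ccn1 was 0.24 and did not pass, and that of Ccn2 was 0.30 without L-gel@GSNP 1 and 0.38 without L-gel@GSNP 2 and passed in both. In the Notch list 3 of 10 (30%) were higher and 2 (20%) lower, no more than the 30.6% and 29.2% of all tested genes. Its ligand gene Jag1 was at 63, 71.5 and 59.8 CPM in L-gel@GSNP, against 110, 110 and 113 CPM in non-SP, 1.71-fold lower. Of 16 TGF-beta and BMP genes 7 were higher and 4 lower. Tgfbi, a secreted target, was at 41.6, 41.6 and 32.4 CPM in the L-gel@GSNP libraries and 4.15, 3.97 and 3.46 CPM in the non-SP libraries, 9.95-fold higher, and Bambi, a decoy receptor, was 10.7-fold higher.

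Matrix and adhesion genes went both ways. Of 17 collagen, laminin and matrix genes 6 (35.3%) were higher and 8 (47.1%) lower (5 under upper-quartile factors), against 30.6% and 29.2% of all tested genes. Col6a1 was at 127, 142 and 145 CPM in L-gel@GSNP cells, against 16.2, 16.2 and 18.2 CPM in non-SP cells, 8.19-fold higher, and Fn1, fibronectin, was at 3260, 3660 and 4200 CPM in L-gel@GSNP and 2720, 2690 and 2830 CPM in non-SP, 1.35-fold higher. The basement membrane genes Nid1 and Col4a1 were 1.99-fold lower and 1.53-fold lower, with Nid1 at 89.8, 84.9 and 92.8 CPM in L-gel@GSNP, against 169, 179 and 185 CPM in non-SP. Col1a1 was at 1.78, 2.28 and 5.13 CPM in the L-gel@GSNP libraries and 12.7, 12.5 and 14.9 CPM in the non-SP libraries, and its log2 difference of -2.04 became -2.70 without L-gel@GSNP 3. Of 14 matrix protease genes 7 were higher and 3 lower, with Mmp10 at 9.79, 8.13 and 10 CPM in L-gel@GSNP cells, against 1.99, 1.56 and 1.4 CPM in non-SP cells, 5.64-fold higher. Of 20 integrin and actin genes 6 (30%) were higher and 10 (50%) lower. Itga2, a collagen-binding integrin, was at 106, 106 and 103 CPM in L-gel@GSNP and 30.9, 31.4 and 31.5 CPM in non-SP, 3.35-fold higher, and Itga5, the fibronectin receptor subunit, was at 29.6, 28.8 and 37.9 CPM in L-gel@GSNP, against 58.5, 60.7 and 63.8 CPM in non-SP, 1.89-fold lower. Among 11 mesenchymal transition genes 6 were higher and 3 lower, with Zeb1 1.44-fold higher and Cdh2, N-cadherin, 1.55-fold lower. Of 14 keratin and junction genes 5 were higher and 6 lower, with Krt19 1.97-fold higher and the desmosome gene Dsp at 165, 173 and 223 CPM in the L-gel@GSNP libraries and 322, 308 and 326 CPM in the non-SP libraries, 1.7-fold lower. Of 15 tubulins and tubulin-binding genes 4 (26.7%) were higher and 8 (53.3%) lower. Beside Tppp and Tppp3, Map2, a microtubule-associated protein, was at 9.26, 8.2 and 11.7 CPM in L-gel@GSNP cells, against 0.719, 0.871 and 1.07 CPM in non-SP cells, 11-fold higher, while Tubb2a and Tubb6 were 2.13-fold lower and 2.08-fold lower. Tubulins and actins have near-identical copies, so their single values are uncertain.

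Genes tied to the sort and to stem-like cells did not move one way. Of 10 tested stem-like markers 3 (30%) were higher and 5 (50%) lower, against 30.6% and 29.2% of all tested genes. Cd44, the hyaluronan receptor, was at 919, 900 and 853 CPM in L-gel@GSNP and 517, 522 and 529 CPM in non-SP, 1.7-fold higher, and Sox4 was at 363, 361 and 410 CPM in L-gel@GSNP, against 153, 156 and 153 CPM in non-SP, 2.46-fold higher. Nes, the neural progenitor filament nestin, was at 1.98, 2.19 and 2.04 CPM in the L-gel@GSNP libraries and 3.52, 3.76 and 3.8 CPM in the non-SP libraries, 1.78-fold lower, and Ezh2, a histone methyltransferase, was 1.55-fold lower. Of 12 efflux pumps 7 were higher and 3 lower. Fitted on the 6 compared libraries alone, 6 of 11 pumps were higher and 3 lower. Abcg2, the pump most tied to Hoechst efflux, was at 49.3, 50.2 and 51.5 CPM in L-gel@GSNP cells, against 48.9, 48 and 47.1 CPM in non-SP cells. The groups did not overlap, but the difference was small and did not pass (log2 difference 0.07, 95% interval -0.05 to 0.18, edgeR adjusted p = 0.301), and under upper-quartile factors it was 0.19 with an adjusted p of 0.00599. Abcb1a, one of the mouse P-glycoprotein genes, was at 48.1, 46.9 and 41.7 CPM in L-gel@GSNP and 17.1, 18.2 and 18.8 CPM in non-SP, 2.52-fold higher, and its close relative Abcb1b was 1.44-fold higher. Abcb4 had 46 counts in L-gel@GSNP and none in non-SP, at least 10.4-fold higher against the same floor, and Abcc4 was at 50.9, 55.9 and 57.9 CPM in L-gel@GSNP, against 92.7, 91 and 91.7 CPM in non-SP, 1.67-fold lower.

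Among 15 receptor tyrosine kinases and ligands 9 were higher and 5 lower. Pdgfa, a ligand of the PDGF receptors, was at 178, 175 and 160 CPM in the L-gel@GSNP libraries and 64.7, 63.2 and 67 CPM in the non-SP libraries, 2.63-fold higher, while its receptor gene Pdgfra was at 15.2, 13.2 and 15 CPM in L-gel@GSNP cells, against 34, 33.4 and 37.6 CPM in non-SP cells, 2.42-fold lower. Met, the receptor of hepatocyte growth factor, was at 80, 75.1 and 65 CPM in L-gel@GSNP and 157, 161 and 161 CPM in non-SP, 2.18-fold lower, and Egfr was 1.3-fold higher. Of 11 genes for immune checkpoint ligands 6 were higher and 3 lower. Cd274, which encodes PD-L1, was at 5.69, 4.26 and 6.32 CPM in L-gel@GSNP, against 3.07, 2.28 and 2.83 CPM in non-SP, 2-fold higher, Cd80 was at 12.5, 13 and 15 CPM in the L-gel@GSNP libraries and 1.68, 2.13 and 1.94 CPM in the non-SP libraries, 7.1-fold higher, and Nt5e, the adenosine-producing enzyme CD73, was at 2.77, 1.87 and 3.13 CPM in L-gel@GSNP cells, against 0.0958, 0.102 and 0 CPM in non-SP cells. Lgals9, galectin-9, was at 92.2, 86.3 and 87.3 CPM in L-gel@GSNP and 200, 205 and 199 CPM in non-SP, 2.27-fold lower, and Cd276 was 1.82-fold lower.

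The summed levels of markers of other cell types were higher in L-gel@GSNP, in several lists through 1 gene. The 12 listed macrophage and microglia markers in the table summed to 40.2, 40.6 and 46.4 CPM in L-gel@GSNP 1, 2 and 3, against 11.8, 11.9 and 11.8 CPM in non-SP, and of 9 that passed the filter 7 were called higher and none lower. Several of these had hardly a read in non-SP and passed the filter through groups where they were higher, so they could only be called higher. In the fit of the 6 libraries 5 of 7 were higher and 1 lower. With DESeq2 7 of 9 were higher and 1 lower, and without L-gel@GSNP 1 6 of 9 were higher and 1 lower. Apart from Tyrobp, the macrophage and microglia markers named next all had more counts in L-gel@GSNP, and the lower one is not among them. Csf1r was at 18, 19.9 and 19.6 CPM in L-gel@GSNP, against 1.75, 2.41 and 3.22 CPM in non-SP, 7.8-fold higher, and Cd68 was 2.4-fold higher. Adgre1, which encodes F4/80, had 27 counts against none, and Tyrobp, another listed marker, had no count in any of these 6 libraries. Itgam was at 3.88, 4.33 and 3.56 CPM in the L-gel@GSNP libraries and 0, 0.0768 and 0.218 CPM in the non-SP libraries, a log2 difference of 5.27 that became 6.61 without non-SP 3. Ptprc, the leukocyte antigen CD45, had 80 counts against 3, a depth-scaled ratio of 18 with an exact 95% counting interval of 5.95 to 89.3, and its fitted log2 difference of 4.13 became 7.40, which is no bound, without non-SP 1. The lymphocyte markers summed to 0.624 to 1.08 CPM in L-gel@GSNP and 0.121 to 0.288 CPM in non-SP, and Cd4 and Ms4a1 had no count. Of 10 astrocyte markers that passed the filter 7 were higher and 1, the growth factor receptor gene Fgfr3, lower, with a log2 difference of -1.15. Apoe was at 92.2, 102 and 90.3 CPM in L-gel@GSNP cells, against 26.9, 25.8 and 28.7 CPM in non-SP cells, 3.49-fold higher. Neuron markers summed to 8.47 to 12 CPM against 0.863 to 1.28 CPM, nearly all from Map2. Oligodendrocyte markers summed to 5.86 to 6.51 CPM against 3.63 to 4.3 CPM, endothelial markers to 120 to 128 CPM against 57.6 to 60.1 CPM, nearly all Esam, and fibroblast and pericyte markers to 1320 to 1480 CPM against 695 to 722 CPM, nearly all Dcn, again L-gel@GSNP against non-SP. Of 7 fibroblast and pericyte markers that passed the filter 4 were higher, while Pdgfra and Col1a1 were lower, by at least 2-fold. The part of other cells in any gene group above was not tested.

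**Figure D4:**
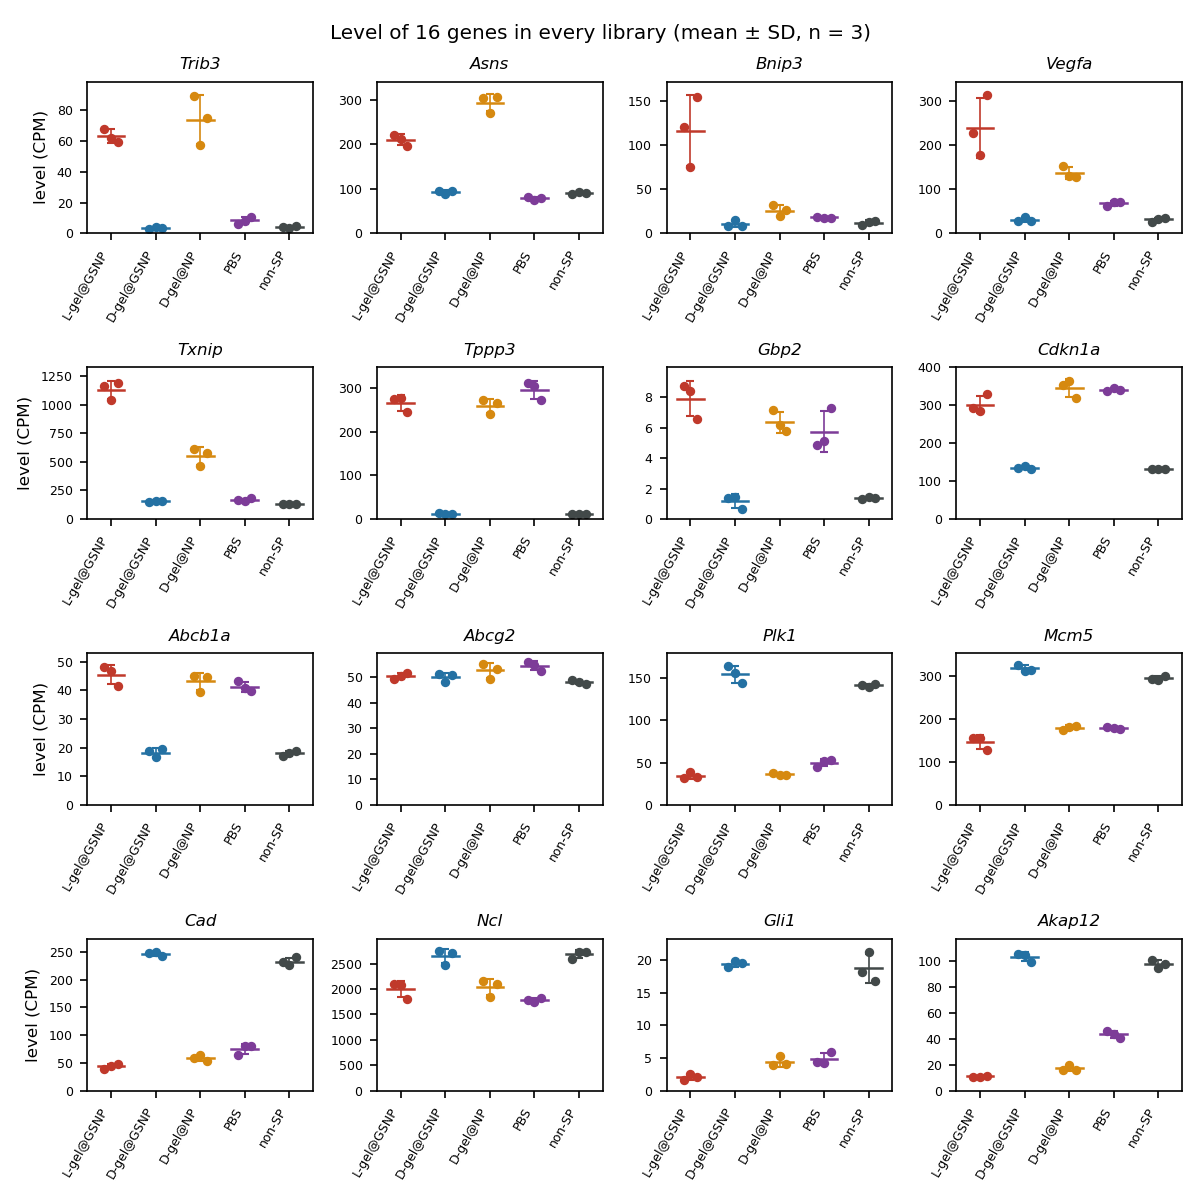
Each panel gives the level (CPM, linear axis from 0) of 1 gene in the 15 libraries, as points, with the group mean as a line and ± SD as a bar (n = 3), L-gel@GSNP at the left and non-SP at the right. In all panels but Ncl and Abcg2 the L-gel@GSNP points lie far from the non-SP points. For Ncl they lie below the non-SP points by a smaller distance, and for Abcg2 all 6 lie between 47.1 and 51.5 CPM. The D-gel@GSNP points lie near the non-SP points.

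Direct tests between L-gel@GSNP and the other groups show which of these differences also separate it from cells of the same labelled population. These comparisons share the L-gel@GSNP libraries. The libraries labelled D-gel@GSNP lay 67.6 to 73.9 from non-SP, about as near as libraries of one group, and their label could not be checked against the data, so it is uncertain whether the comparison with them is one between gels. Against D-gel@GSNP, by its label the same load in the gel of the other mark, 5475 genes (31.3%) were higher and 5339 (30.5%) lower, against PBS 3761 (21.5%) and 4218 (24.1%), and against D-gel@NP 1457 (8.33%) and 1948 (11.1%). With upper-quartile factors the counts were 6778 and 4180 against D-gel@GSNP and 4560 and 3421 against PBS. D-gel@NP 1 was the shallowest library, with 16626413 counts, and with every library thinned to its depth 904 genes were higher and 1262 lower in L-gel@GSNP than in D-gel@NP. By the same distances, the L-gel@GSNP libraries lay 73.4 to 101 from the D-gel@NP libraries, 97.7 to 111 from PBS and 135 to 145 from D-gel@GSNP.

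Hypoxia and glycolysis genes were mostly higher than in each of these groups. Against D-gel@NP 19 of 23 were higher and 1 lower, against PBS 16 and 1, and against D-gel@GSNP 14 and 6. Bnip3 was at 25.7 CPM in D-gel@NP, 17.9 CPM in PBS and 10.6 CPM in D-gel@GSNP, and Vegfa was at 137, 67.6 and 30.9 CPM in the same groups. The log2 differences of L-gel@GSNP from D-gel@NP were 2.20 for Bnip3 and 0.81 for Vegfa (edgeR adjusted p = 3.74e-07 and 0.000234). Txnip was at 551 CPM in D-gel@NP and 167 CPM in PBS, log2 differences of 1.04 and 2.76.

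Stress response genes were higher than in PBS but not than in D-gel@NP. Against PBS 16 of 20 were higher and 2 lower, with a median log2 difference of 0.97, and against D-gel@NP none was higher and 11 were lower, with a median of -0.40. Trib3 was at 74 CPM in D-gel@NP, 8.33 CPM in PBS and 3.28 CPM in D-gel@GSNP. Its difference from D-gel@NP did not pass (log2 difference -0.22, edgeR adjusted p = 0.313). Asns was at 294 CPM in D-gel@NP and was lower in L-gel@GSNP, by a log2 difference of -0.48. Of 22 p53 targets 15 were lower than in D-gel@NP and 2 higher, and of 25 interferon genes 5 were lower and 6 higher. Ribosome biogenesis genes were lower than in D-gel@NP for 13 of 21, synthetases for 9 of 18 and replication genes for 11 of 26. None of these was higher, and of all tested genes 11.1% were lower and 8.33% higher.

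Against PBS the sterol genes were nearly all lower. Of 23 tested, 22 were lower in L-gel@GSNP and none higher, with a median log2 difference of -1.06, where the median against non-SP was 0.11. Hmgcs1 was at 120, 127 and 115 CPM in the L-gel@GSNP libraries, against 152, 137 and 166 CPM in the PBS libraries, a log2 difference of -0.33. Gpnmb was at 807 CPM in PBS and 422 CPM in D-gel@NP, log2 differences of -2.69 and -1.76. Genes of G2 and mitosis were lower than in PBS for 16 of 22, with a median log2 difference of -0.25, and none was lower than in D-gel@NP, where 1 was higher. Plk1 was at 49.9 CPM in PBS, 36 CPM in D-gel@NP and 155 CPM in D-gel@GSNP. Of the largest rises over non-SP, Tppp was at 48.9 CPM in PBS and 52.2 CPM in D-gel@NP, near its level in L-gel@GSNP, while Tmprss6 was at 0.365 and 11.1 CPM and Lcn2 at 0.572 and 3.17 CPM, both called higher in L-gel@GSNP than in either group.

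**Figure D5:**
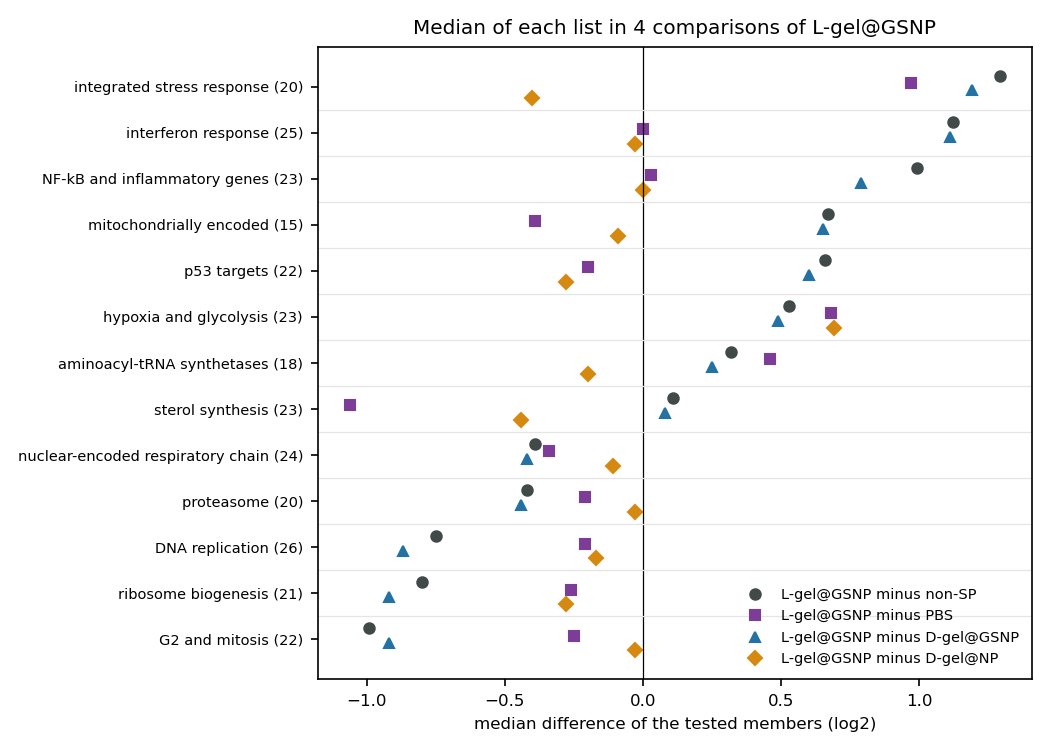
Symbols give the median log2 difference of the tested members (number in brackets) of 13 lists in L-gel@GSNP minus non-SP (circles), minus PBS (squares), minus D-gel@GSNP (triangles) and minus D-gel@NP (diamonds). The circles and triangles lie close together in each list. The diamonds are at 0.69 for hypoxia and glycolysis, -0.44 for sterol synthesis and -0.40 for the stress response. They are at -0.28 for p53 targets and ribosome biogenesis, -0.20 for the synthetases and -0.17 for DNA replication, and nearer 0 for the other lists. The comparisons share the L-gel@GSNP libraries.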

How the data were processed

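RNA was sequenced in 15 GL261 libraries, of which 3 L-gel@GSNP and 3 non-SP libraries are compared. The authors deposited whole-number counts per gene. The submitters' processing notes name fastp 0.22.0, HISAT2 2.1.0, featureCounts, DESeq2 and the build GRCm39. Strand and multi-mapping settings are not given in the sources used here. The deposited FPKM values equal the authors' count divided by gene length and library total, within a relative 6.1e-07. Symbols come from a table of gene names, matched by identifier for 32434 of 34259 genes (1825 not matched), so no gene coordinates of GRCm39 are given, and promoters are RefSeq's on GRCm38.p6.

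Counts were tested in R 4.3.3 with edgeR 4.0.16 (filterByExpr by group, 17497 genes kept, TMM factors, glmQLFit and glmQLFTest with a mean per group over all 15 libraries), with Benjamini-Hochberg adjustment over all tested genes and calls at an adjusted p under 0.05. The biological coefficient of variation was 8.06%. Log2 differences are L-gel@GSNP minus the other group, and intervals are 95% intervals of the model. Counting intervals and floors (3 counts over a group) cover counting error only. Replicate numbers did not pair the libraries. The script was tested on simulated data. Alternatives were RLE and upper-quartile factors, other filters, DESeq2 1.42.0, limma 3.58.1 on log2 FPKM with pseudocounts of 1 and 0.1, a replicate block, thinning to the shallowest library, leaving out mitochondrial genes, fitting 6 libraries, and leaving out each library.

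The gene lists, the comparison and the rule for naming genes were chosen with earlier results of these data known. Of 831 listed symbols 808 were in the table, and the others, Sox2 and Aqp4 among them, were not analysed here. The rule named a panel (Prom1, Abcg2, Abcb1a, Nes, Cd44, Olig2, Gfap, Tubb3, Myc, Cdkn1a, Plk1), the 10 largest log2 rises and falls and the 8 largest in CPM among called genes without overlap, with at least 5 CPM and a symbol not of the Gm or Rik form. It also named up to 4 members of each list by lowest adjusted p, those called against the list, and the 5 largest rises and falls against each other group. The text gives a part of these, and other list members were named for their role after their values were seen.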

Additional observations from a re-analysis of the deposited data

How the results depend on the processing

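Under 18 alternatives, 8197 to 10428 of the 10468 genes called in L-gel@GSNP minus non-SP were called again, and none of these had the opposite direction. Leaving out 1 library at a time gave 4952 to 5178 higher and 4733 to 4843 lower genes, 2193 to 2315 and 784 to 835 of them by at least 2-fold, and a difference in the mitochondrial share of 1.58 to 1.75 percentage points. The same gave 3228 to 3580 higher and 3697 to 4017 lower genes against PBS, 5109 to 5358 and 5000 to 5169 against D-gel@GSNP, and 1083 to 1260 and 1511 to 1783 against D-gel@NP. On log2(FPKM + 1), 579 genes were at least 2-fold higher and 274 lower (579 and 276 with no filter), since the pseudocount shrinks the change of low genes. Thinned to the shallowest library, L-gel@GSNP minus D-gel@NP had 904 higher and 1262 lower genes, and fitted on 6 libraries it had 1298 lower genes; fewer counts and fewer libraries enter these fits. With the replicate block 5352 genes were higher and 5108 lower than in non-SP, and the deviations of same-numbered libraries correlated at -0.04, -0.03 and 0.01. Of 376 genes with a value here, 44 changed their call in at least 1 alternative. Mars (0.01, adjusted p = 0.896) and Psma6 (0, adjusted p = 0.978) changed sign under upper-quartile factors, and the cause was not tested. These factors moved the median log2 difference of all tested genes from 0.041 to 0.16. The median of 7 of 49 lists changed sign (fatty acid, NRF2, iron, ERK feedback, YAP and TAZ, Notch and matrix). Depth limits the genes at or under 3 counts in a group, Prom1 among them.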
